A study of Mus musculus with 9 samples.

Results

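Mouse genes whose platform symbol is Zfp followed by a number were described in F9 embryonal carcinoma cells given a vehicle, retinoic acid or trichostatin A. Membership followed the symbol alone: a probe set had to carry a single symbol of that form, and Zfp42 and Zfp703 were left out. This gave 106 probe sets for 81 genes, out of 12422 probe sets that are no controls and 8251 genes named by a single symbol. Of the 81 genes, 60 had 1 probe set, 17 had 2 and 4 had 3. A further 6 probe sets that list a Zfp symbol beside another gene were not counted as members.

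The Zfp name covers zinc finger proteins of several kinds and is no proof of function. Most are C2H2 proteins, in which short loops held by a zinc ion read DNA. Many of these carry a KRAB domain, which recruits the corepressor Trim28 and, through it, histone deacetylases, the H3K9 methyltransferase Setdb1 and heterochromatin protein 1. Others activate transcription, bind RNA or act in the cytoplasm. In embryonic cells the KRAB proteins are known for silencing transposons and, in the case of Zfp57, for keeping imprinted regions methylated.

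F9 is an established mouse teratocarcinoma line whose cells turn into endoderm when given retinoic acid (RA). Each group had 3 arrays and 24 h of exposure: ethanol as the vehicle, 0.5 µM RA, or 0.07 µM trichostatin A (TSA), which inhibits histone deacetylases. The labels name no other genotype, agent or passage, and they do not say whether the replicates were separate cultures, so a p-value here reflects no more than the spread of these 9 arrays, which may be technical. Every value is divided by its probe set's vehicle mean, so the vehicle arrays average 1 everywhere and nothing is known of how bright a probe set was. The cell type could therefore not be checked by level. As a check of the labels, the retinoid-induced gene Stra8 reached 224 ± 14.9 times the vehicle mean in RA and 21.2 ± 5.21 times in TSA (SD, n = 3), rising in both by limma, and the marker Utf1 of undifferentiated cells averaged 0.270 ± 0.0981 in RA and 0.370 ± 0.101 in TSA.

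Array medians over all probe sets lay between 0.821 and 1.02, and those over the Zfp probe sets between 0.786 and 1.12. The highest of these was vehicle replicate 1, on which 57 of the 106 Zfp probe sets had their highest vehicle value, against 41.1% of all probe sets. On the log2 scale the Zfp probe sets had a median SD of 0.407 over the vehicle arrays, 0.291 over RA and 0.252 over TSA. Vehicle replicate 3 and RA replicate 3 had 18S rRNA control signals of 2.4 and 0.961 times the vehicle mean, and the other 7 arrays had 0.538 or less.

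Across the class, very little passed the test. Differences are given as log2 of the ratio plus 0.05, from a limma fit over all 9 arrays with Benjamini-Hochberg adjustment over all probe sets, and a probe set was counted as changed at an adjusted p under 0.05. In RA, 1 of 106 Zfp probe sets changed, where 1.36% of all probe sets did: 1 rose, against 0.934% of all, and 0 fell, against 0.427%. In TSA 1 of 106 changed, against 3.48% of all: 0 rose, against 2.21%, and 1 fell, against 1.27%. Between RA and TSA 2 of 106 differed, against 3.91% of all: 2 were higher in RA, against 1.7%, and 0 lower, against 2.21%. These shares are near or below those of the array as a whole. The same 2 genes made up all of these calls: Zfp362, higher in RA, and Zfp101, lower in TSA.

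Zfp362, a C2H2 protein related to Zfp384, rose in RA. Its probe set 104366_at read 0.963, 0.989 and 1.05 on the vehicle arrays, 2.38, 2.09 and 1.80 on the RA arrays, and 0.939, 0.720 and 0.961 on the TSA arrays. All 3 RA arrays lay above every vehicle and TSA array, and the vehicle arrays had an SD of 0.044. The mean in RA was 2.09 ± 0.289 (SD, n = 3), a log2 change of 1.02 with a standard error of 0.194 and an adjusted p of 0.0463 (limma). In TSA the log2 change was -0.20, with a 95% interval of -0.64 to 0.25 and an adjusted p of 0.63 (limma). RA exceeded TSA by 1.22, with a standard error of 0.194 and an adjusted p of 0.0136 (limma).

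The RA call of Zfp362 sat near the threshold. Without any single array it was lost in 9 of 9 fits, with the log2 change between 0.93 and 1.12. It held in 7 of 20 alternative settings, in which limma's adjusted p ran from 0.00229 to 0.168. The 0.00229 came from array weights, a fit that did not converge and is among the 7. The next lowest was 0.023, after centring the arrays on their medians (limma). With the replicate number as a block the adjusted p was 0.074 (limma). The difference from TSA held in 17 of 20 settings, with limma's adjusted p up to 0.064, and was lost without RA replicate 1 (0.0541), RA replicate 2 (0.055) or TSA replicate 2 (0.064). Some endoderm markers rose in RA on the same arrays. The 16 probe sets listed for them averaged 2.01 to 2.42 times the vehicle mean on the RA arrays and 0.837 to 1.19 on the vehicle arrays. By limma 2 of the 16 rose, 1 each for Gata6 and Sox7, against 0.934% of all probe sets. Log2 differences below 0 were seen in 4 of the 16, down to -0.49. The Gata6 probe set that rose averaged 14.0 in RA. The median of the 16 was 1.14 to 1.39 on the RA arrays and 0.857 to 1.18 on the vehicle arrays. In TSA 1 of the 16 rose, that of Lama1 (1.11, limma adjusted p = 0.0397), against 2.21% of all. Log2 differences in TSA were below 0 in 13 of the 16, down to -0.87, with a median of -0.19. Ratios cannot show which of these markers were near 0. Their part in the rise of Zfp362 was not tested. In such bulk RNA, more cells of a type and more RNA per cell cannot be told apart.

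Zfp101, a KRAB zinc finger gene, fell in TSA. Its probe set 99963_at read 1.54, 0.740 and 0.719 on the vehicle arrays, 0.986, 0.978 and 0.901 on the RA arrays, and 0.357, 0.163 and 0.147 on the TSA arrays. The TSA arrays lay below all 6 others, and vehicle replicate 1 stood above the other vehicle arrays. The mean in TSA was 0.222 ± 0.117 (SD, n = 3), a log2 change of -1.94 with a standard error of 0.362 and an adjusted p of 0.027 (limma). The log2 change in RA was 0.02, with a 95% interval of -0.80 to 0.85. RA exceeded TSA by 1.96, with an adjusted p of 0.0228 (limma).

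The fall of Zfp101 held in 11 of 19 alternative settings, with limma's adjusted p from 0.00298 to 0.166 and a log2 change from -2.27 to -1.47. Array weights, which are among the 11 and did not converge, gave the 0.00298 and the -1.47. The next lowest adjusted p was 0.0223, with the replicate number as a block (limma). Without 1 array the fall was lost for vehicle replicate 1 (adjusted p = 0.0539), vehicle replicate 2 (0.0634), RA replicate 2 (0.0544), TSA replicate 2 (0.124) and TSA replicate 3 (0.0918), all by limma. The difference between RA and TSA held in 12 of 19 settings, with limma's adjusted p from 0.0154 to 0.13. It was lost when RA replicate 1 (0.081), 2 (0.0804) or 3 (0.0633) was left out, and when TSA replicate 2 (0.0969) or 3 (0.087) was. Of 12 probe sets for markers of fibroblasts and feeder cells, 2 rose in TSA by limma, against 2.21% of all probe sets. They were those of Col1a1 (21.0 ± 6.51 times the vehicle mean, SD, n = 3) and Thy1 (7.06 ± 1.07). Log2 differences below 0 were seen in 5 of the 12, down to -1.37. The 12 averaged 2.67 to 3.98 on the TSA arrays and 0.704 to 1.56 on the vehicle arrays. Their median was 1.17 to 1.39 on the TSA arrays, overlapping with 0.565 to 1.56 on the vehicle arrays. Their part in the fall of Zfp101 was not tested.

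**Figure D1:**
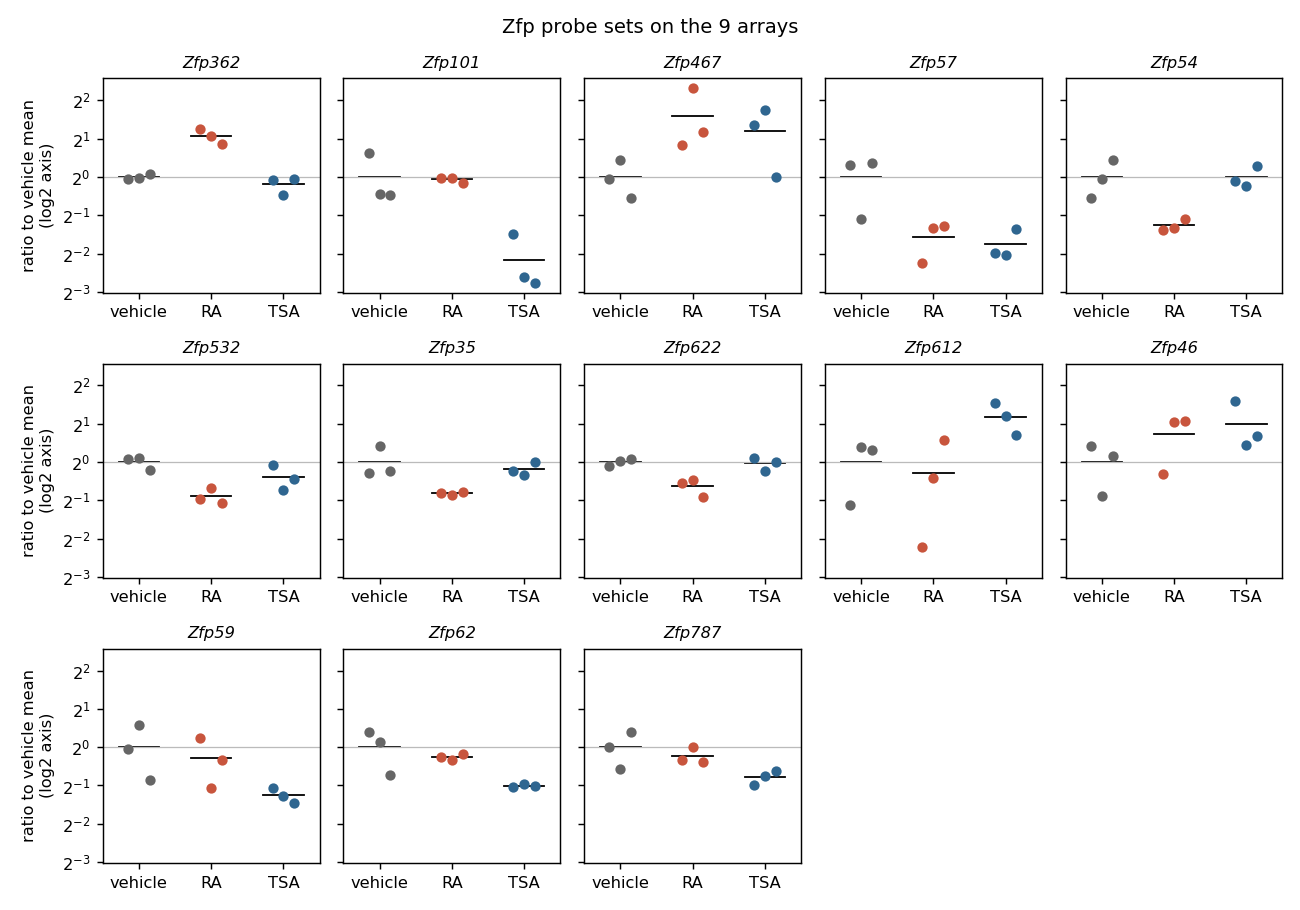
Ratio to the vehicle mean (log2 axis) on each array for 13 Zfp probe sets, by group (vehicle grey, RA red, TSA blue), with points for the 3 replicates from left to right and a black line at their mean. The RA arrays of Zfp362 lie between 1.80 and 2.38 and the TSA arrays of Zfp101 between 0.147 and 0.357, apart from the other groups.

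The start region of Zfp101 is printed because it is the changed member for which a sequence was at hand; none was for Zfp362. It covers 250 bases before to 50 bases after the annotated start, on the minus strand of chr17:33394588-33394887 in GRCm38.p6, from RefSeq. Capitals mark CCAAT or its reverse complement ATTGG.

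Zfp101: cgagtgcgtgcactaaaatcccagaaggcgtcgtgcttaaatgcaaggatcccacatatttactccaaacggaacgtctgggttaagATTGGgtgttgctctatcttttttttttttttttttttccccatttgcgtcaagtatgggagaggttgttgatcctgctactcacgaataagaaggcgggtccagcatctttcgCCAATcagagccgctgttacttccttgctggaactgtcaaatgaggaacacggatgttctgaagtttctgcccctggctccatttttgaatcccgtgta

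It holds 13 CpG pairs in 300 bases, and 35.4% of 8412 start regions of genes named on the array hold fewer. CCAAT, searched on both strands, occurs 2 times in it and at least once in 37.0% of those 8412 regions. GGGCGG, a GC box, was not found in it on either strand and occurs in 57.0% of them. The retinoid receptor hexamer AGGTCA and the TATA box TATAAA were not found either, and occur in 13.6% and 9.99% of them. A match is a run of letters and no shown binding site. Start regions were at hand for 68 of the 81 genes, 88 in all: 51.1% held GGGCGG, 42.0% CCAAT, 14.8% AGGTCA and 7.95% TATAAA, with a median of 18 CpG pairs, the same as over the 8412.

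The class as a whole lay slightly below vehicle in both treatments, as did the array as a whole. The median log2 difference over the 106 probe sets was -0.16 in RA and -0.21 in TSA, beside -0.12 and -0.17 over all probe sets. After each array was centred on its median these became -0.00082 and -0.0074, beside 0.035 and 0.029 over all; centring takes out a shift common to the array by construction. The RA median was -0.039 without vehicle replicate 1 and -0.087 without RA replicate 3, and the TSA median was -0.14 without TSA replicate 2. In RA 65 of 106 lay below 0, against 62.3% of all, and in TSA 74 of 106, against 63.9%. Differences over 1 in size were seen in 5 of 106 in RA and 8 of 106 in TSA, with 8.16% and 11.3% over all probe sets. A Zfp probe set had a median standard error of 0.291, and a 95% interval of 0.663 to either side, and single probe sets were narrower or wider than that.

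**Figure D2:**
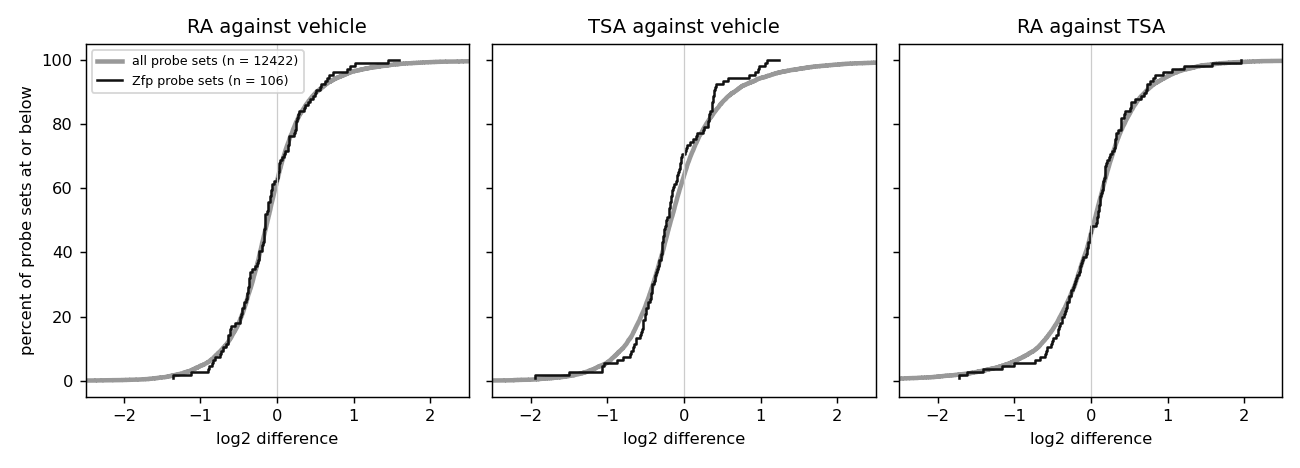
Cumulative share of probe sets (percent) by log2 difference, in 3 comparisons, for the 106 Zfp probe sets (black) and all 12422 probe sets (grey). The curves nearly coincide in RA, with medians of -0.16 and -0.12. In TSA the black curve runs from -1.94 to 1.24. The grey one is longer at both ends, and a range widens with the number of probe sets.

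By a looser measure, the 3 RA arrays of 16 Zfp probe sets lay wholly above or below the 3 vehicle arrays, as did 17% of all probe sets. Of these 2 were higher, against 5.93% of all, and 14 lower, against 11%. In TSA the arrays of 22 did not overlap with vehicle, against 26.3% of all, 2 of them higher, against 9.26%, and 20 lower, against 17.1%. Centring turned these into 9 higher and 8 lower in RA and 6 and 6 in TSA, beside 9.56%, 6.09%, 14.4% and 8.9% of all probe sets. Quantile normalisation gave 2 and 6 in RA and 2 and 2 in TSA, beside 6.24%, 4.99%, 9.11% and 7.56%. At an unadjusted p under 0.05 (limma) there were 14 of 106 in RA and 13 in TSA, with 12.7% and 19.6% over all.

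**Figure D3:**
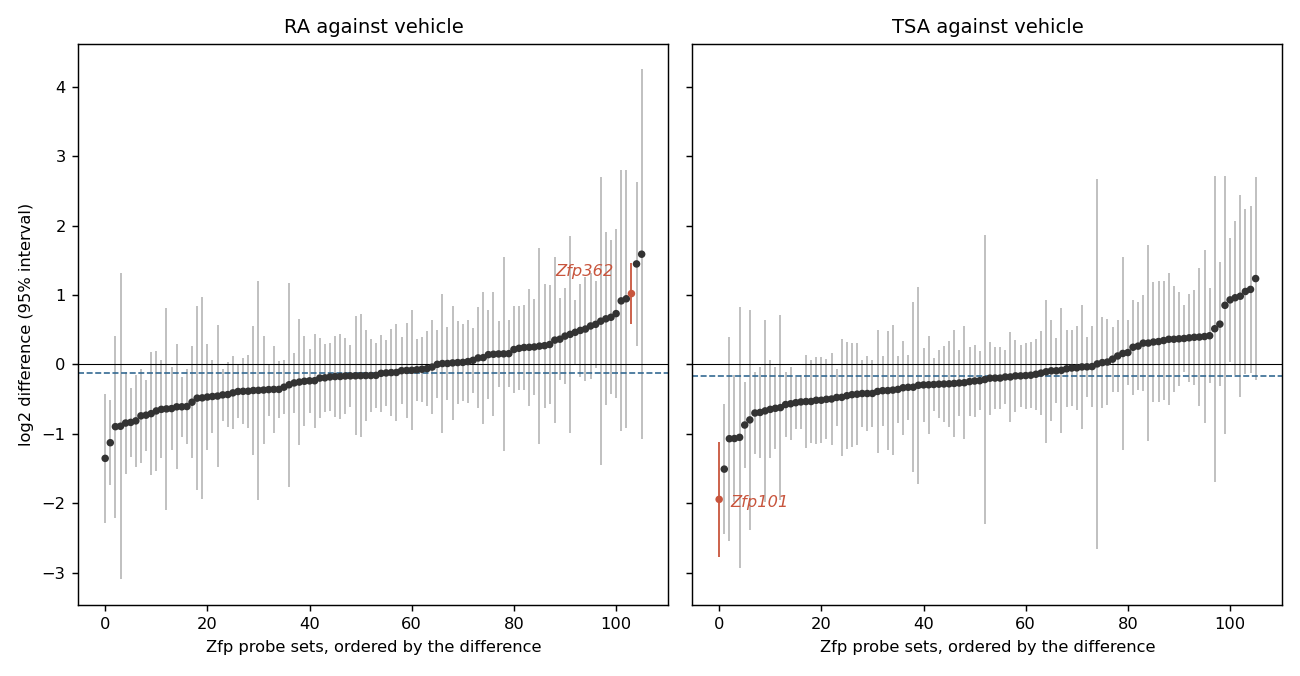
Log2 difference from vehicle of each of the 106 Zfp probe sets, ordered by size, with 95% intervals from the limma fit (grey lines) and the median of all probe sets (dashed blue). The 1 probe set past an adjusted p of 0.05 in each panel is red: Zfp362 at 1.02 in RA and Zfp101 at -1.94 in TSA.

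Among the KRAB genes, Zfp57, which binds imprinted regions and keeps them methylated, had the lowest value of the class in RA and the lowest after Zfp101 in TSA, without passing the test. It read 1.24, 0.468 and 1.29 on the vehicle arrays, 0.212, 0.394 and 0.413 on the RA arrays, and 0.253, 0.244 and 0.390 on the TSA arrays. Every treated array lay under every vehicle array, though vehicle replicate 2 came close to them. The log2 differences were -1.35 in RA and -1.51 in TSA, each with a standard error of 0.409, and neither passed (limma adjusted p = 0.189 and 0.0886). Both are measured against the same vehicle arrays. In 19 alternative settings the TSA difference passed in 1, without vehicle replicate 2, at -1.96 with a limma adjusted p of 0.0361. The range over the settings was 0.0361 to 0.296.

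Zfp54 and Zfp59 are other KRAB members set apart by their arrays. The probe set 102626_r_at of Zfp54 read 0.677, 0.960 and 1.36 in vehicle, 0.383, 0.399 and 0.463 in RA, and 0.928, 0.853 and 1.22 in TSA. The RA arrays were below all 6 others, but the log2 difference of -1.13 from vehicle did not pass (limma adjusted p = 0.105), nor did that of -1.16 from TSA (limma adjusted p = 0.0533). In 18 alternative settings the difference from vehicle passed in 1, array weights, which did not converge. That from TSA passed in 6, with limma's adjusted p from 0.0112, also under array weights, to 0.17. The second probe set of Zfp54, 102625_f_at, gave -0.36 in RA and 0.16 between RA and TSA. The letter f marks probe sets that Affymetrix names as shared within a sequence family, so their signal cannot be assigned to 1 gene. The name of 102626_r_at carries a letter too, r, so neither probe set of Zfp54 is of the type without one. Zfp59 read 0.961, 1.49 and 0.550 in vehicle and 0.479, 0.413 and 0.365 in TSA, a log2 difference of -1.07 with a limma adjusted p of 0.191.

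Of 30 genes listed as KRAB genes, 18 were measured, with 24 probe sets. By limma 0 of the 24 changed in RA, against 1.36% of all probe sets, and 1 in TSA, the fall of Zfp101, against 3.48%. The median log2 difference was 0.0085 in RA and 0.0027 in TSA, with 11 and 12 of 24 below 0, against 62.3% and 63.9% of all. The list is not complete, and the members in no list, with 71 probe sets, can hold more KRAB genes. Those 71 had medians of -0.16 in RA and -0.26 in TSA, with 47 and 54 below 0. The values of the 24 therefore do not stand for all KRAB members, only for those in the list. Zfp568, a KRAB gene outside this list that is known for silencing a placental promoter of Igf2, gave -0.39 and -0.16 in RA and -0.15 and -0.24 in TSA from its pair of probe sets. Zfp110, a list member known as a partner of the neurotrophin receptor p75, gave -0.09 in RA and -0.42 in TSA.

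Members that bind RNA or are no classical repressors were represented by 5 of 12 listed genes, with 7 probe sets. None changed by limma, where 1.36% of all probe sets did in RA and 3.48% in TSA, so a count of 0 among 7 says nothing of the list. Zfp36, or tristetraprolin, which speeds the decay of AU-rich mRNAs, read 1.68, 0.651 and 0.669 in vehicle, 1.56, 0.530 and 1.89 in RA, and 1.78, 2.79 and 1.54 in TSA. Vehicle replicate 1 overlapped with the TSA arrays, and the log2 difference of 1.08 in TSA had a limma adjusted p of 0.303. The spindle factor Zfp207 gave -0.38 in TSA, the splicing-linked Zfp326 -0.12, and the LIM protein Zfp185 0.39. The 3 probe sets of Zfp106, an RNA-binding protein, lay between -0.69 and -0.25 in TSA. Zfp598, which marks stalled ribosomes with ubiquitin, was outside this list and gave -0.36 in RA and -0.47 in TSA.

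Of 11 genes listed for activating or developmental roles, 3 were measured, with 4 probe sets. None changed by limma, against 1.36% of all probe sets in RA and 3.48% in TSA, and 4 are too few to set beside those shares. Zfp292 gave similar differences from its pair of probe sets. Of these, 99851_at read 1.06, 0.878 and 1.06 in vehicle, 0.713, 0.769 and 0.766 in RA, and 0.649, 0.648 and 0.714 in TSA. Its second probe set gave -0.36 in RA and -0.55 in TSA, beside -0.39 and -0.54 from the first. Both had TSA arrays wholly below vehicle, with limma adjusted p of 0.113 and 0.129. Zfp281, a regulator of Nanog, gave -0.16 in RA and 0.03 in TSA, and Zfp148, which binds GC-rich promoters, -0.27 and -0.23.

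The other 55 genes, with 71 probe sets, held the rise of Zfp362. Apart from it, Zfp467 was the one with RA arrays above vehicle: it read 0.967, 1.35 and 0.683 in vehicle, 1.79, 4.98 and 2.25 in RA, and 2.56, 3.33 and 1.00 in TSA. Its log2 difference of 1.45 in RA had a standard error of 0.520 and did not pass (limma adjusted p = 0.287). Zfp622, a factor of ribosome maturation, read 0.680, 0.719 and 0.529 in RA against 0.933, 1.01 and 1.06 in vehicle, a log2 difference of -0.61 (limma adjusted p = 0.21), and its second probe set gave -0.67. Zfp532 gave -0.83 in RA with a limma adjusted p of 0.135. Zfp35 read 0.571, 0.554 and 0.581 in RA against 0.820, 1.33 and 0.847 in vehicle, a log2 difference of -0.73 (limma adjusted p = 0.197).

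In TSA the 2 probe sets above vehicle without overlap were those of Zfp612 and Zfp46. Zfp612 read 0.459, 1.31 and 1.23 in vehicle, 0.215, 0.744 and 1.5 in RA, and 2.92, 2.29 and 1.62 in TSA. Zfp46 read 1.34, 0.543 and 1.12 in vehicle and 3.02, 1.36 and 1.59 in TSA. Replicates of both differed widely, and their log2 differences of 1.24 and 0.96 did not pass (limma adjusted p = 0.331 and 0.321). Zfp62 was steadier, at 0.485, 0.516 and 0.494 in TSA against 1.30, 1.10 and 0.599 in vehicle, a log2 difference of -0.87 with a limma adjusted p of 0.126. Zfp644, a partner of the H3K9 methyltransferases G9a and GLP, gave -0.58 in TSA (limma adjusted p = 0.169), and 1 of the 3 probe sets of Zfp787 gave -0.70 (limma adjusted p = 0.188).

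Measured directly against each other, RA and TSA did not overlap in 27 Zfp probe sets, against 27.3% of all. RA was the lower of both in 48 of 106 by log2 difference, against 45.8% of all. Of the 27, 16 were higher in RA, against 13.8%, and 11 lower, against 13.5%. Zfp101 and Zfp362 were the 2 past the test. Zfp653, which represses nuclear receptor targets, gave 0.95 and Zfp821 0.73, both with RA above TSA. Zfp612 gave -1.72 and 1 of the pair of probe sets of Zfp93 gave -1.62, with TSA above RA. None of these 4 differences passed, with limma adjusted p between 0.184 and 0.24. The second probe set of Zfp93 gave -0.0056.

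Of the 21 genes with several probe sets, 15 had all of them on the same side of 0 in RA and 15 in TSA. Their probe sets differed by a median of 0.23 in RA and 0.26 in TSA, and by over 1 in 3 genes in each. The 3 in RA were Zfp771, Zfp777 and Zfp93, and the 3 in TSA were Zfp771, Zfp91 and Zfp503. For RA against TSA the probe sets differed by over 1 in 4 genes, Zfp54, Zfp777, Zfp91 and Zfp93. Zfp771 ranged from -0.90 to 0.95 in RA and from -0.67 to 0.85 in TSA. Zfp503, a repressor related to Zfp703, read 0.0769, 0.141 and 2.78 on the vehicle arrays with 160660_r_at and 0.712, 1.51 and 0.775 with 161741_r_at. Its differences of 1.59 and 0.92 in RA had standard errors of 1.17 and 0.824, so no direction can be read from either. In Zfp91, a ubiquitin ligase, 162485_at reached 5.01 on TSA replicate 3 but 0.451 and 0.697 on the other TSA arrays, and the other probe sets gave -0.57 and -0.28.

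**Figure D4:**
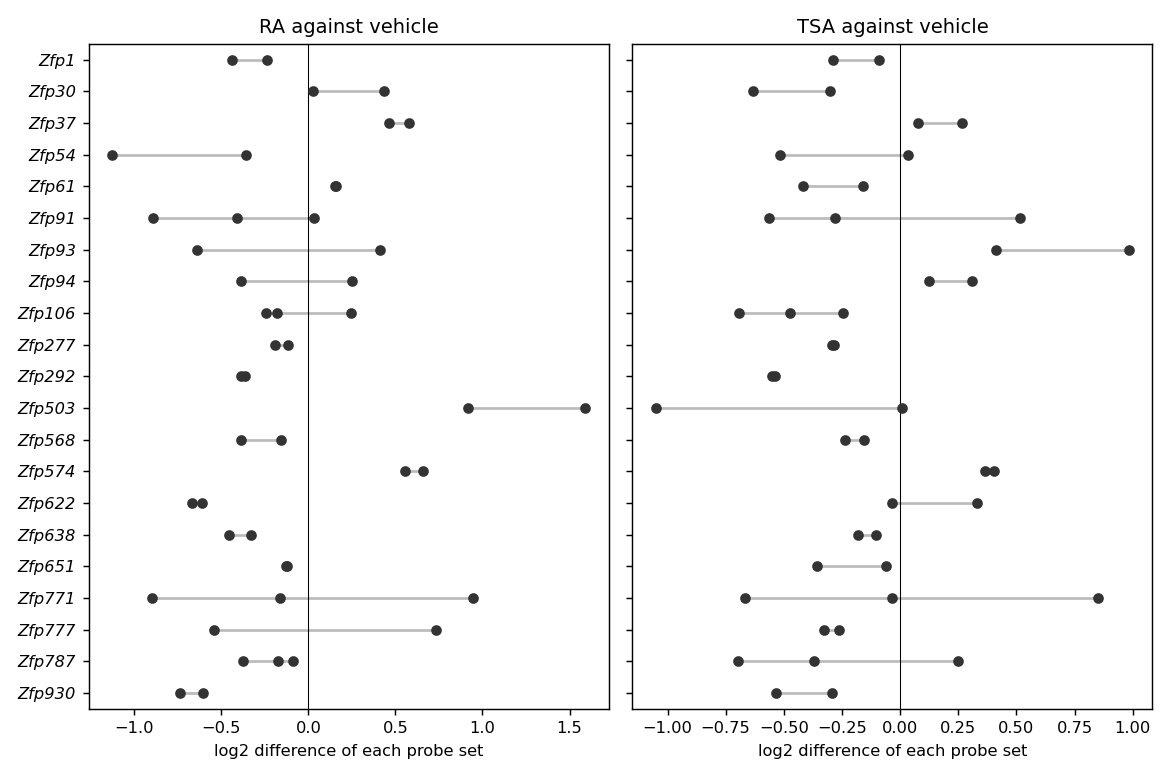
Log2 difference from vehicle of each probe set (points) of the 21 Zfp genes with 2 or 3 probe sets, in RA and in TSA, joined by a line within a gene. Zfp292, Zfp574 and Zfp638 have probe sets close together, and those of Zfp771 range from -0.90 to 0.95 in RA.

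Probe sets of the family type, with f in their name, numbered 12. Their median log2 difference was -0.30 in RA and -0.18 in TSA, beside -0.16 and -0.24 for the 82 probe sets with no type letter (f, r, i or s). None of the 12 changed by limma, against 1.36% of all probe sets in RA and 3.48% in TSA. Among them Zfp97, Zfp932 and Zfp930 gave similar differences, with -0.81, -0.84 and -0.74 in RA and -0.50, -0.43 and -0.53 in TSA. Since probe sets of this type can be shared between members, these may not be 3 separate measurements.

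Many Zfp genes sit in clusters. In the RefSeq gene order of GRCm38.p6, 39 of the 81 genes lie within 10 protein-coding genes of another member, in 13 groups. The largest group, of 8, holds Zfp54, Zfp51, Zfp53, Zfp942, Zfp943, Zfp758, Zfp40 and Zfp213. Its gene means in TSA ran from -0.33 for Zfp40 to 0.93 for Zfp943, and no member of it passed in any comparison by limma. The neighbours of Zfp101 include Zfp81 and Zfp955b, which no probe set with a single symbol measured, and no other member lies within 10 genes of it.

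The corepressor partners of KRAB proteins were measured by 29 probe sets for 20 of 27 listed genes. None rose or fell in RA, where 1.36% of all probe sets changed. In TSA 0 rose, against 2.21% of all, and 1 fell, against 1.27%. This was Mbd3, a subunit of the NuRD deacetylase complex, which averaged 0.448 ± 0.0703 in TSA (SD, n = 3), with a log2 change of -1.08 and a limma adjusted p of 0.0274. Trim28 itself read 0.991, 0.947 and 1.06 in vehicle, 0.779, 0.603 and 0.874 in RA, and 0.631, 0.597 and 0.749 in TSA. Both treatments lay wholly below vehicle, at -0.40 and -0.57, without passing (limma adjusted p = 0.449 and 0.16). Between RA and TSA 1 of the 29 was higher in RA, against 1.7% of all, and 1 lower, against 2.21%. The higher one was that of Mbd3 (1.05, limma adjusted p = 0.0263). The lower one was 1 of the pair of probe sets of Smarcad1, a remodeller that binds Trim28 (-0.92, limma adjusted p = 0.0489).

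C2H2 factors with other names gave 69 probe sets for 51 of 66 listed genes, of which 2 rose in RA, against 0.934% of all probe sets. In TSA 2 rose, against 2.21%, and 1 fell, against 1.27%. Plagl1, an imprinted growth regulator, and Zfpm1, the GATA cofactor FOG1, rose in both: Plagl1 by 2.36 in RA and 2.87 in TSA in 1 probe set, and Zfpm1 by 1.42 and 1.20. The pluripotency factor Klf4 fell in TSA by 1.79 on the log2 scale (limma adjusted p = 0.0098). Between RA and TSA 1 of the 69 was higher in RA by limma, against 1.7% of all, and 1 lower, against 2.21%. The higher one was that of Wt1, at 1.66, and the lower one that of Klf10, at -1.003.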

How the data were processed

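RNA of 9 samples was hybridised by the Affymetrix protocol, per the labels. The deposited value of each probe set on an array is a linear ratio, and the 3 vehicle arrays average 1 within 1.93e-07, so each ratio is to the vehicle mean. GeneSpring is named for the vehicle arrays only, per the labels, and the scanning, summarising and scaling steps are not given. Groups came from the sample titles. The 66 control probe sets were left out and no filter on low values was used, so all 106 Zfp probe sets were tested. Symbols came from the platform annotation, and all 106 matched a RefSeq entry by Entrez ID.

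Values were taken as log2(ratio + 0.05), which understates changes of low values, and fitted with limma 3.58.1 (R 4.3.3) over all 9 arrays, with 6 residual degrees of freedom. The procedure was tested on simulated data. Members and lists were chosen with earlier results of these data known. Genes named were those past an adjusted p of 0.05, the 5 largest differences each way without overlap, genes with discordant probe sets and called genes of the lists; Trim28, Zfp653, Zfp821, Zfp644, Zfp598, Zfp568, Zfp110, Zfp36 and other listed members were named for their role or after their values were seen. Alternatives were other pseudocounts (0.01 and 0.1), scaling, a 30% filter, a variance trend, the 6 arrays compared, a replicate block, array weights, leaving out arrays, averaging by gene and other membership rules.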

Additional observations from a re-analysis of the deposited data

How the results depend on the processing

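Counts of changed Zfp probe sets are small, so 1 gene moves them. In RA against vehicle the count of 1 became 0 after quantile normalisation, with the 6 arrays compared, with the replicate block and without both arrays of highest 18S signal, 19 with array weights, and 2 when symbols with a letter suffix were added, through Zfp36l2 (-1.44, limma adjusted p = 0.0436). Leaving out each array gave 0 to 0. In TSA against vehicle the count of 1 became 0 after quantile normalisation, with the 30% filter, which left 76 of 106 and took out Zfp101, and with the 6 arrays compared, 40 with array weights and 2 without both 18S arrays, where Zfp101 was lost and Zfp62 (-1.19) and Zfp777 (-1.06) passed; leaving out each array gave 0 to 3, the 3 without vehicle replicate 3. In RA against TSA the count of 2 became 1 after quantile normalisation, with the filter and without both 18S arrays, and 4 with the 6 arrays compared; leaving out each array gave 0 to 6, the 6 without vehicle replicate 3. Array weights did not converge and gave vehicle replicate 2 a weight of 21.4, against 0.247 to 1.68 for the others. The median over Zfp probe sets was -0.00082 in RA after centring, -0.0028 after quantile normalisation and 0.014 with the filter, and -0.0074, -0.058 and -0.087 in TSA under the same 3. The filter dropped the 30% of probe sets with the lowest mean ratio over the 9 arrays. Since every vehicle mean is 1, these were the probe sets lowest in RA and TSA. It therefore took out falls by construction and is no filter on brightness. Over all probe sets, falls called in TSA went from 158 to 9 with it. Over all probe sets, the counts of 169, 432 and 486 ranged from 54 to 2196, 107 to 4494 and 167 to 943. The replicate block gave 0 changed in RA (Zfp362, limma adjusted p = 0.074) and 1 in TSA. Between RA and TSA the block gave 3, where Zfp54 passed (limma adjusted p = 0.037). After centring Zfp54 passed in that comparison too (limma adjusted p = 0.0476). Arrays with the same number correlated by -0.0317 to 0.289 in their deviations. The 3 arrays numbered 3 correlated best with each other, at 0.19 to 0.289, but those numbered 2 by only -0.0317 to 0.0316, so the numbers were not taken as a pairing.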
